A study of Sus scrofa with 32 samples.

Results

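Broad H3K4me3 domains are long stretches of chromatin under this mark, and 437 of them were described in pig muscle satellite cells. They were chosen by joining all peaks of the 8 H3K4me3 lists that overlapped by at least 1 bp and keeping every joined region at least 5 kb wide with a peak in all 8 lists. That gave 437 of 19622 joined regions (2.23%), or 3.87% of the 11298 regions found in all 8 lists. The other 10861 regions found in all 8 lists, with a median width of 2.15 kb, are called narrower regions here and serve for comparison.

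The series profiled H3K4me3, H3K27ac and H3K27me3 by CUT&Tag, in which an antibody-guided transposase cuts and tags DNA beside a histone mark. For each mark there were 4 groups of 2 libraries: CBP at 60 h, WT at 60 h, CBP at 0 h and WT at 0 h. CBP cells were given SGC-CBP30, a bromodomain inhibitor of the acetyltransferases CBP and p300, for 60 h in differentiation and 48 h in proliferation. WT cells are labelled without the compound, and no vehicle is named. The labels give the dose as 5 uM/ml, a unit that is not clear. The labels conflict in places: the treatment field names proliferation for 60 h samples too, and cell line C3H in RPMI stands beside the fields for pig and satellite cells. No genotype difference is described beyond the group names, and nothing says whether the 2 libraries of a group came from separate cultures, so p-values measure the spread between libraries, which may be technical.

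H3K4me3 is deposited around active and poised promoters by the COMPASS family of methyltransferases. Most promoters carry a short block of it, and a minority carry blocks that spread over several kilobases into the gene; such wide blocks are known from many cell types to lie at genes of cell identity and at highly transcribed genes. Satellite cells are the stem cells of skeletal muscle, marked by PAX7, and they divide as myoblasts before they leave the cell cycle and fuse. CBP and p300 place acetyl groups on H3K27, a mark of active promoters and enhancers.

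Each list holds positions of called peaks, so every value below is a length, in kb under peaks, and not a signal height. Read depth is unknown, and a shallower or noisier library can give shorter peaks. H3K4me3 lists held 14898 to 17364 peaks and covered 27.6 and 27.5 Mb in CBP at 60 h, 27.4 and 26.5 Mb in WT at 60 h, 17.3 and 17.4 Mb in CBP at 0 h, and 21.8 and 22.1 Mb in WT at 0 h. Peaks lay within 1 kb of a gene end in all 8 libraries for 7 of 10 satellite cell markers, among them PAX7, MYF5 and CDH15. MYOD1 had none in either CBP library at 0 h, VCAM1 had one in CBP at 60 h alone, and ITGA7 had none in any within that distance, although a 6.87 kb domain with peaks in all 8 libraries lay inside the gene, 1602 bp from its end. Of other lineages, a peak in all 8 libraries was found for 5 of 10 fibroblast markers (LUM, DPT and PI16 had none in any), 1 of 9 endothelial, 1 of 10 haematopoietic, 2 of 10 adipocyte and 0 of 9 neural or glial markers. Summed over the fibroblast list, peaks covered 8.88 to 9.10 kb in CBP and 7.31 to 7.68 kb in WT at 60 h, and 5.59 kb in both CBP libraries against 8.12 to 8.36 kb in WT at 0 h. The part of other cell types in the results below was not tested.

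The label "broad" holds for the joined regions more than for single peaks. Width ran from 5.00 to 22.5 kb with a median of 5.78 kb, and 258 domains lay between 5 and 6 kb, 137 between 6 and 8 kb, 29 between 8 and 10 kb, and 13 at 10 kb or more. A single peak of at least 5 kb occurred in at least 1 library for 348 domains, in all 8 libraries for 13, and in none for 89. Counting the peaks of 1 group alone, 268 domains reached 5 kb in CBP at 60 h, 270 in WT at 60 h, 26 in CBP at 0 h and 97 in WT at 0 h, and 20 did so in all 4 groups. Membership was therefore set mostly by the 60 h libraries, and the lengths compared below took part in choosing the members; for H3K4me3 they are given as a description of these domains. Just inside the limit stood KLF16 (5.000 kb), CARNS1 (5.005 kb) and a domain on chromosome X with no gene end (5.007 kb); just outside stood MAT2B (4.999 kb), MAP2K3 (4.997 kb) and a region on chromosome 6 with none (4.994 kb).

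A protein-coding gene began or ended in 342 domains (78.3%), against 70.4% of narrower regions. Strand was not given in the annotation used, so either end of a gene was counted, and 469 genes were assigned in this way. Of the 95 domains without a gene end, 71 lay inside a protein-coding gene, and these are named below as inside that gene. All 18 autosomes and chromosome X carried domains, from 8 on chromosome X to 52 on chromosome 2.

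The widest domain covered HOXA10 and HOXA9, homeobox genes that set position along the body axis (chromosome 18, 45393348 to 45415869 on Sscrofa11.1, 22.5 kb). H3K4me3 peaks there covered 21.5 and 21.6 kb in CBP and 21.7 and 21.3 kb in WT at 60 h, and 18.7 and 19.0 kb in CBP and 21.9 and 22.3 kb in WT at 0 h. Both CBP libraries at 0 h stood below the other 6, both WT libraries at 0 h stood above them, and the groups at 60 h overlapped. Other wide domains were those of ACAP3 with PUSL1 (14.5 kb), HOXC10 with HOXC9 (12.6 kb), TNRC18 (12.2 kb), and TBL3 with the ribosomal protein gene RPS2 and 3 others (12.1 kb). Among the 10 widest were also 1 inside LOC110260611 (11.6 kb), 1 inside ARHGEF2 (11.5 kb) and 1 at BCL6, a transcriptional repressor (11.2 kb).

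The members were read against gene lists written with earlier results of these data known, so the shares are descriptive. Of all 19533 protein-coding genes, 2.40% had an end in a domain. Only a gene with an end in a region found in all 8 lists could be counted. That held for 9325 genes, of which 469 lay in a domain. The share was 29.0% of 31 immediate early genes (9 genes), 28.6% of 28 genes of cell cycle exit and growth arrest (8), 26.7% of 45 cytoskeleton and adhesion genes (12), 20% of 30 satellite cell identity genes (6) and 19.4% of 36 HOX genes (7). Signalling genes (17 of 101) and developmental transcription factors (20 of 119) followed at 16.8% each. Extracellular matrix (5 of 54), ribosomal protein (6 of 69), contractile (3 of 38), chromatin regulator (5 of 68) and cell cycle (2 of 40) genes lay between 5% and 9.3%. Among genes with an end in a region of all 8 lists the order differed. Contractile genes stood at 3 of 5, HOX 7 of 16, immediate early 9 of 22, developmental 20 of 57 and cytoskeleton 12 of 35. Cell cycle exit genes stood at 8 of 25, satellite cell identity 6 of 21, signalling 17 of 64 and extracellular matrix 5 of 28. Chromatin regulators stood at 5 of 51, ribosomal protein genes 6 of 66 and cell cycle genes 2 of 33. Of 40 panel genes found in the annotation, 15 lay in a domain. MYF5, MYOD1, MYOG and MYF6, the myogenic regulatory factors, were not among them. A domain needed a peak in all 8 lists. Within 1 kb of a gene end, MYOD1 had none in either CBP library at 0 h. At 60 h its peaks there covered 3.15 to 3.71 kb.

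Summed over the 437 domains, H3K4me3 peaks covered 2394 and 2395 kb in the CBP libraries and 2480 and 2423 kb in the WT libraries at 60 h. At 0 h they covered 1553 and 1555 kb in CBP and 1964 and 1969 kb in WT. The CBP to WT ratio of group means was 0.977 at 60 h and 0.790 at 0 h, and the 60 h to 0 h ratio was 1.54 in CBP and 1.25 in WT. No pair of groups overlapped. Since these lengths took part in choosing the domains, their sums and shares are given without a test.

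**Figure D1:**
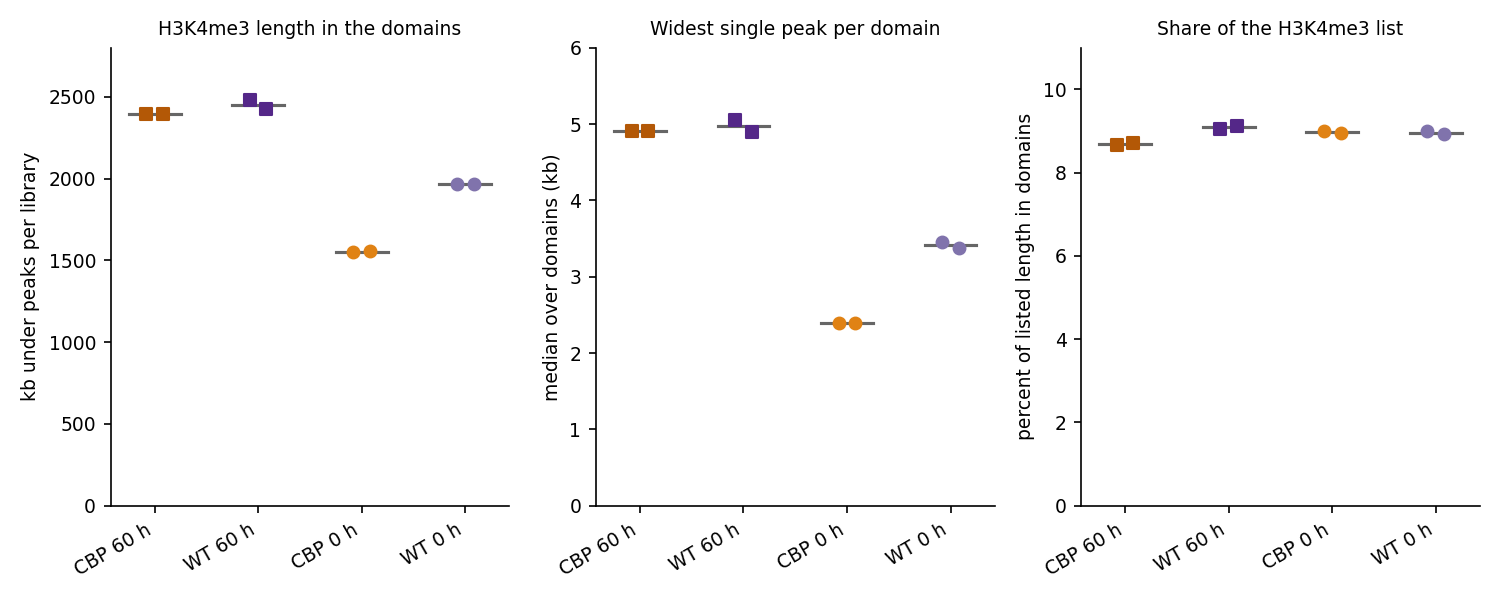
Left, kb under H3K4me3 peaks in the 437 domains; middle, median over domains of the widest single peak in kb; right, percent of each library's listed H3K4me3 length that lies in domains. Points are libraries and bars are group means (n = 2): CBP at 0 h is lowest for both lengths (1553 and 1555 kb in all), while the share stays between 8.67% and 9.13% in all 8 libraries.

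The whole of each list lengthened and shortened with the domains. Domains held 8.67% and 8.71% of listed H3K4me3 length in CBP and 9.05% and 9.13% in WT at 60 h, and 8.999% and 8.95% in CBP and 9.01% and 8.92% in WT at 0 h. CBP stood below WT at 60 h by 0.401 percentage points, and the groups overlapped at 0 h (difference 0.00849).

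Domains were also in fewer pieces at 60 h. The mean number of separate peaks per domain was 1.51 and 1.56 in CBP and 1.44 and 1.49 in WT at 60 h, against 2.29 and 2.18 in CBP and 2.03 and 2.14 in WT at 0 h. The length was in 1 piece in 261 and 247 domains in CBP and 278 and 268 in WT at 60 h, and in 110 and 131 in CBP and 152 and 133 in WT at 0 h. The median widest peak was 4.92 and 4.90 kb in CBP and 5.05 and 4.90 kb in WT at 60 h, where the groups overlapped, and 2.39 and 2.40 kb in CBP against 3.46 and 3.38 kb in WT at 0 h. Most of the difference in length between CBP and WT at 0 h lay at the outer edges of domains (79.4%, with 20.6% in inner gaps). At 60 h the difference of -56.9 kb lay 43.3% at the outer edges and 56.7% in inner gaps. Of the length gained by 60 h, 76.1% lay at the edges in CBP and 69.5% in WT.

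Per domain, kb under peaks were compared with limma on log2(bp + 500) across 17007 regions, and a domain was called at an adjusted p below 0.05. For H3K4me3 such a p sets a change against the spread between libraries and is no test independent of how the domains were chosen. A log2 change below is on that scale, which understates changes of short lengths. At 0 h, 290 domains were lower and 6 higher in CBP than in WT; over all regions tested 33.6% were called lower and 1.61% higher. The median change was -0.28 in domains and -0.16 in narrower regions (-0.30 and -0.20 with 100 bp added before the log2 instead). Since the whole list was shorter in CBP, 2 rescalings were run: centring each library on its regions found in all 8 lists moved the median of all regions by -0.19, and quantile scaling by -0.23. Then 138 domains were called lower and 29 higher under centring, and 130 lower and 69 higher under quantile scaling. All 138 and all 130 were among the 290, and 13 domains called lower or higher as deposited were called the other way after quantile scaling. Counting domains whose 2 groups do not overlap, CBP was lower in 382 and higher in 15 at 0 h, against 57.8% and 5.8% of all regions.

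NFE2L1, a stress-response bZIP factor (8.35 kb), had the largest decrease among domains with a gene end: 0.895 and 0.911 kb in CBP against 3.55 and 3.30 kb in WT at 0 h (log2 change -1.48 ± 0.04 SE, limma adjusted p = 0.000130). At MAMSTR and RASIP1, the first a coactivator of MEF2 factors, peaks covered 1.05 and 1.01 kb in CBP against 3.603 and 3.23 kb in WT (-1.36 ± 0.06, adjusted p = 0.000196). These CBP values were less than any WT value, and both calls held under either rescaling. Of domains without a gene end, the largest decreases were in a 5.81 kb domain inside LOC110260611, separate from the 11.6 kb one there (-1.65, adjusted p = 0.0267), and at 2 places inside PLEC, which encodes the cytoskeletal linker plectin (-1.59 and -1.40, adjusted p = 0.0247 and 0.000960).

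Gene lists were counted beside all 437 domains, of which 66.4% were called lower in CBP at 0 h with a median of -0.28, and the counts of the lists given here lay near that share. Of 6 satellite cell identity domains, 5 were called lower and none higher, with a median of -0.39. DES, the muscle intermediate filament gene, had 0.481 and 0.578 kb in CBP against 1.99 and 2.28 kb in WT (-1.36 ± 0.08, adjusted p = 0.000295). PAX7, the satellite cell transcription factor, had 4.23 and 3.75 kb in CBP against 4.800 and 4.94 kb in WT (-0.26 ± 0.07, adjusted p = 0.0335). Of the 5 calls, 3 were kept under both rescalings, DES and MSC among them, whereas the PAX7 change was -0.07 after centring and -0.02 after quantile scaling and was not called.

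Among 6 HOX domains, 5 were called lower in CBP at 0 h, beside 66.4% of all domains, with a median of -0.47. The domains of HOXC11, HOXC10, HOXC10 with HOXC9, and HOXC6 are neighbours in 1 cluster, so the 6 are not separate loci. HOXC11 had 2.21 and 2.67 kb in CBP against 4.49 and 4.62 kb in WT (-0.79 ± 0.11, adjusted p = 0.00450), and HOXC6 had 2.76 and 2.50 kb against 4.33 and 5.13 kb in WT (-0.74 ± 0.08, adjusted p = 0.00201). The widest, HOXA10 with HOXA9, was called lower as deposited (-0.23, adjusted p = 0.000667) but not after centring (-0.04). Of the 5 calls, 4 were kept under both rescalings. Of 12 cytoskeleton and adhesion domains, 9 were lower and none higher (66.4% lower over all domains), and 6 of the 9 calls were kept under both. VIM, the intermediate filament gene of mesenchymal cells, had 3.50 and 3.51 kb in CBP against 5.85 and 6.16 kb in WT (-0.70 ± 0.04, adjusted p = 0.000286).

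The immediate early list had 7 of 9 domains lower, beside 66.4% of all domains, of which 4 kept the call under both rescalings, and 1 higher. JUNB, an AP-1 subunit, had 2.60 and 2.88 kb in CBP against 4.51 and 4.67 kb in WT (-0.65 ± 0.05, adjusted p = 0.000753). EGR1, a zinc finger factor of the same response, was the 1 called higher, with 3.86 and 3.82 kb in CBP against 3.57 and 3.65 kb in WT (0.08 ± 0.02, adjusted p = 0.0466). Cyclin D1 (CCND1) had 3.52 and 3.57 kb in CBP against 5.33 and 5.30 kb in WT (-0.52 ± 0.04, adjusted p = 0.000673), and the cell cycle inhibitor CDKN1A had 2.59 and 2.36 kb against 3.53 and 3.42 kb in WT (-0.42 ± 0.05, adjusted p = 0.00212). MYC did not pass (-0.07, adjusted p = 0.181).

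The other 5 domains called higher in CBP at 0 h moved little, except one on chromosome 7 with 3 uncharacterised genes. That domain (20903418 to 20909388) had 3.196 and 3.195 kb in CBP against 1.98 and 1.51 kb in WT (0.73 ± 0.18, adjusted p = 0.0274). TBC1D10B, a Rab GTPase-activating gene, changed by 0.17, RTN4 by 0.12, a domain inside the pyruvate kinase gene PKM by 0.13, and the 11.6 kb domain inside LOC110260611 by 0.13. The groups did not overlap in any of these. The 6 higher calls, EGR1 included, came to 1 without CBP replicate 1 at 0 h, 3 without CBP replicate 2, 5 without WT replicate 1 and 3 without WT replicate 2, and to 2 without either WT library at 60 h or with a replicate block.

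At 60 h the lengths in CBP and WT were close, and 73 domains were called lower and 22 higher in CBP. Over all regions tested, 9.25% were called lower and 11.8% higher, but the balance of all regions was not stable: centring gave 1852 lower and 1708 higher, leaving out CBP replicate 1 at 60 h 1325 and 764, and leaving out CBP replicate 2 1341 and 840. Of narrower regions, 4.04% were lower and 8.60% higher, against 16.7% and 5.03% of domains. Centring gave 88 lower and 18 higher domains, with 73 and 18 among those called before, and quantile scaling gave 63 lower and 37 higher, with 61 and 22 among them. Without overlap, CBP was lower in 165 domains and higher in 134, against 23.7% and 36.9% of all regions. Leaving out any 1 of the 4 libraries brought the 95 calls to between 44 and 54. Without WT replicate 1 they were 25 lower and 19 higher, without WT replicate 2 they were 36 lower and 11 higher, without CBP replicate 1 they were 37 and 9, and without CBP replicate 2 they were 42 and 12.

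The domain inside CCDC80, which encodes a secreted matrix protein (chromosome 13, 147204766 to 147212291), had 2.50 and 2.30 kb in CBP against 7.32 and 7.21 kb in WT at 60 h (-1.42 ± 0.07, limma adjusted p = 0.000153). Across all 8 libraries the WT values at 60 h stood far above the rest. GAD1, the glutamate decarboxylase gene of GABA synthesis, had 1.68 and 1.19 kb in CBP against 4.70 and 4.58 kb in WT (-1.42 ± 0.13, adjusted p = 0.000838). LOXL1, a collagen and elastin cross-linking enzyme, had 1.966 and 1.965 kb against 5.24 and 4.79 kb in WT (-1.16 ± 0.12, adjusted p = 0.00166). In these 3 domains CBP and WT were also apart at 0 h, in the same direction.

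The 3 contractile domains gave 1 call lower and 1 higher in CBP at 60 h, beside 16.7% of all domains lower and 5.03% higher. Several other genes known from muscle were named for their size of change or picked after their values were seen. S100A1, a calcium-binding protein of striated muscle, had 2.26 and 2.84 kb in CBP against 5.14 and 5.22 kb in WT (-0.90 ± 0.12, adjusted p = 0.00381). RBM24, a muscle splicing factor, had 3.81 and 4.09 kb against 6.95 and 6.77 kb in WT (-0.73 ± 0.04, adjusted p = 0.000147). The domain of TNNC1, slow skeletal and cardiac troponin C, had 4.57 and 5.15 kb against 7.05 and 6.67 kb in WT (-0.46, adjusted p = 0.00839). It also holds an end of NISCH, so its length cannot be assigned to TNNC1 alone. The WT values exceeded the CBP values in all 3, without overlap.

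The domain inside PACSIN3, which encodes a membrane-bending protein, fell by 0.80 (adjusted p = 0.000643), and DES had 3.77 and 4.12 kb in CBP against 5.34 and 5.27 kb in WT (-0.39, adjusted p = 0.0195). TPM1, which encodes a tropomyosin of the thin filament, had 8.46 and 7.88 kb in CBP against 7.25 and 6.72 kb in WT (0.21 ± 0.05, adjusted p = 0.0302), and TPM2 did not pass (-0.05, adjusted p = 0.701).

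Among genes of growth control, MDM2, a ubiquitin ligase gene, had 2.57 and 2.74 kb in CBP against 4.39 and 4.41 kb in WT at 60 h (-0.63 ± 0.09, adjusted p = 0.00667). Cyclin D3 (CCND3), in a domain that also holds an end of TAF8, had 3.73 and 3.76 kb in CBP against 5.07 and 5.00 kb in WT (-0.38, adjusted p = 0.000490). CCND1 changed by -0.22 (adjusted p = 0.0162) and CDKN1A by -0.29 (adjusted p = 0.0110). All 4 genes had separate groups. HOX domains gave no call at 60 h in either direction (0 of 6), beside 16.7% of all domains called lower and 5.03% higher. PAX7 did not pass (-0.13, adjusted p = 0.263).

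Higher in CBP at 60 h were first MOGS with WBP1 (chromosome 3, 68577099 to 68582247), MOGS encoding a glucosidase of N-glycan trimming. Peaks covered 4.27 and 5.12 kb in CBP against 2.23 and 1.97 kb in WT (0.996 ± 0.09, adjusted p = 0.00116). A domain inside SHOX2, a homeobox gene of limb development, had 5.10 and 4.58 kb against 3.20 and 2.64 kb in WT (0.65 ± 0.09, adjusted p = 0.00513). The next were RNF187 (0.56), a domain inside GATD1 (0.55), and RUSC1 with FDPS, the farnesyl diphosphate synthase gene (0.44). Every CBP value exceeded every WT value in these 5.

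From 0 h to 60 h most domains lengthened in both treatments. CBP cells had 60 h of inhibitor in differentiation at 60 h and 48 h in proliferation at 0 h. Time and exposure to the inhibitor therefore cannot be told apart in CBP. In CBP, 392 domains were longer and 10 shorter at 60 h, against 69.1% and 2.13% of all regions. In WT, 258 were longer and 21 shorter, against 37.7% and 8.74% of all regions. The median change of domains was 0.55 in CBP and 0.23 in WT, beside 0.35 and 0.14 in narrower regions. Adding 100 bp before the log2 instead gave 0.59 and 0.25, beside 0.45 and 0.17. Domains were chosen mostly by width at 60 h, so this comparison is not independent of the rule. Centring moved the all-region median by 0.40 in CBP and 0.17 in WT; it left 194 longer and 89 shorter domains in CBP and 156 longer and 77 shorter in WT, and 54 and 1 domains were then called the other way. Without overlap, 413 domains were longer and 15 shorter at 60 h in CBP, against 79.1% and 3.23% of all regions, and 333 and 44 in WT, against 58% and 15.5%. Quantile scaling left 185 longer and 99 shorter in CBP and 138 longer and 103 shorter in WT.

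**Figure D2:**
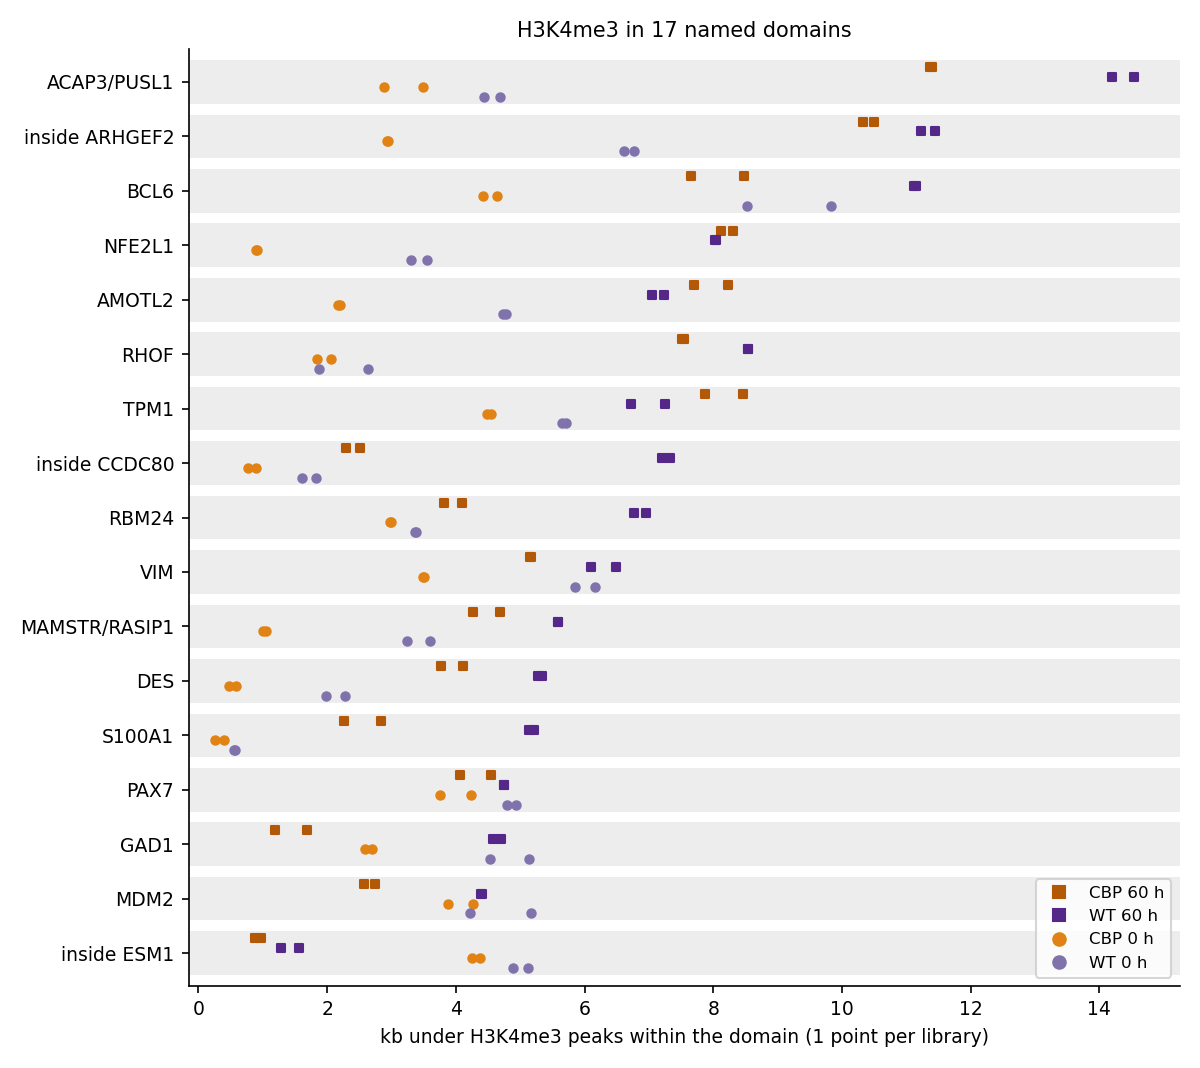
Kilobases under H3K4me3 peaks in 17 named domains, 1 point per library, with CBP above WT and 60 h (squares) above 0 h (circles) in each row. NFE2L1 and DES are shortest in CBP at 0 h, the domain inside CCDC80 and RBM24 are long in WT at 60 h, and the domain inside ESM1 is longer at 0 h in both treatments.

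NFE2L1 also lengthened most in CBP, with 8.31 and 8.12 kb at 60 h against 0.895 and 0.911 kb at 0 h (2.64 ± 0.04, limma adjusted p = 2.97e-06), while WT had 8.03 and 8.05 kb at 60 h against 3.55 and 3.30 kb at 0 h (1.12 ± 0.04, adjusted p = 2.09e-05). CIRBP, a cold-inducible RNA-binding protein, changed by 2.26 in CBP and 1.19 in WT, and HES6, a bHLH factor of myogenic and neural differentiation, by 2.13 and 1.35. DES had 3.77 and 4.12 kb at 60 h against 0.481 and 0.578 kb at 0 h in CBP (2.11, adjusted p = 3.00e-05), and 5.34 and 5.27 kb against 1.99 and 2.28 kb in WT (1.14, adjusted p = 0.000194). In both treatments the 60 h values of these genes lay above all 0 h values.

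In WT the largest gain was at S100A1, with 5.14 and 5.22 kb at 60 h against 0.570 and 0.549 kb at 0 h (2.42 ± 0.12, adjusted p = 6.97e-05). In CBP it had 2.26 and 2.84 kb at 60 h against 0.392 and 0.255 kb at 0 h (1.89, adjusted p = 0.000107). ANGPTL4, a secreted inhibitor of lipoprotein lipase, gained 1.91 in WT and 1.42 in CBP, the CCDC80 domain 1.81 and 1.13, and RHOF, a small GTPase of filopodia, 1.73 and 1.71. All 3 contractile domains were called longer at 60 h in both treatments, beside 89.7% of all domains in CBP and 59.0% in WT; 2 of the 3 calls in CBP and 1 of the 3 in WT were kept under both rescalings. TNNC1 with NISCH had 4.57 and 5.15 kb at 60 h against 1.58 and 1.39 kb at 0 h in CBP (1.44, adjusted p = 6.22e-05), and 7.05 and 6.67 kb against 1.92 and 1.97 kb in WT (1.59, adjusted p = 5.89e-05).

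Few domains were shorter at 60 h. One inside ESM1, a secreted proteoglycan gene, had 0.966 and 0.873 kb at 60 h against 4.26 and 4.38 kb at 0 h in CBP (-1.77 ± 0.08, adjusted p = 4.49e-05), and 1.29 and 1.57 kb against 4.88 and 5.12 kb in WT (-1.52 ± 0.08, adjusted p = 8.45e-05). In CBP it was followed by GAD1 (-0.71) and MDM2 (-0.53), which did not pass in WT (-0.05 and -0.08). Inside CDKN2B, a gene for an inhibitor of the cyclin D kinases, WT had 3.33 and 2.71 kb at 60 h against 5.12 and 5.19 kb at 0 h (-0.69, adjusted p = 0.00147), and CBP changed by -0.34 (adjusted p = 0.0124). FOXP2, a forkhead factor, was shorter in both (-0.24 in CBP and -0.42 in WT), and the vasodilator peptide gene ADM was shorter in WT (-0.57) and longer in CBP as deposited (0.28, but -0.12 after centring and not called). CCND1 was shorter at 60 h in WT (-0.20, adjusted p = 0.0117) and did not pass in CBP (0.10, adjusted p = 0.0746).

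The inhibitor's effect at 60 h less its effect at 0 h was tested as 1 term of the same fit. This term cannot separate time from exposure to the inhibitor, which also differed (60 h and 48 h). It was positive in 213 domains and negative in 15, against 34.9% and 6.22% of all regions. Centring left 89 positive and 60 negative domains and quantile scaling 97 and 47, and all 15 negative ones were called in each. The positive term was largest at NFE2L1 (1.51 ± 0.05), SBNO2 (1.39), MOGS with WBP1 (1.33), inside CELF2, an RNA-binding splicing factor (1.302), and AMOTL2, a junction protein of the Hippo pathway (1.12). AMOTL2 had 7.70 and 8.23 kb in CBP against 7.04 and 7.23 kb in WT at 60 h, and 2.19 and 2.16 kb in CBP against 4.78 and 4.73 kb in WT at 0 h (limma adjusted p of the difference 0.000229). These 5 kept their calls under both rescalings.

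Negative terms stood at the CCDC80 domain (-0.68), GAD1 (-0.66), RBM24 (-0.57), S100A1 (-0.53) and the PACSIN3 domain (-0.50), where CBP fell further below WT at 60 h than at 0 h. MDM2 (-0.45) and CCND3 (-0.28) had the same sign. With a stricter peak threshold, a -log10 q of at least 5, the term at S100A1 was 0.18 and no longer passed (adjusted p = 0.308).

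**Figure D3:**
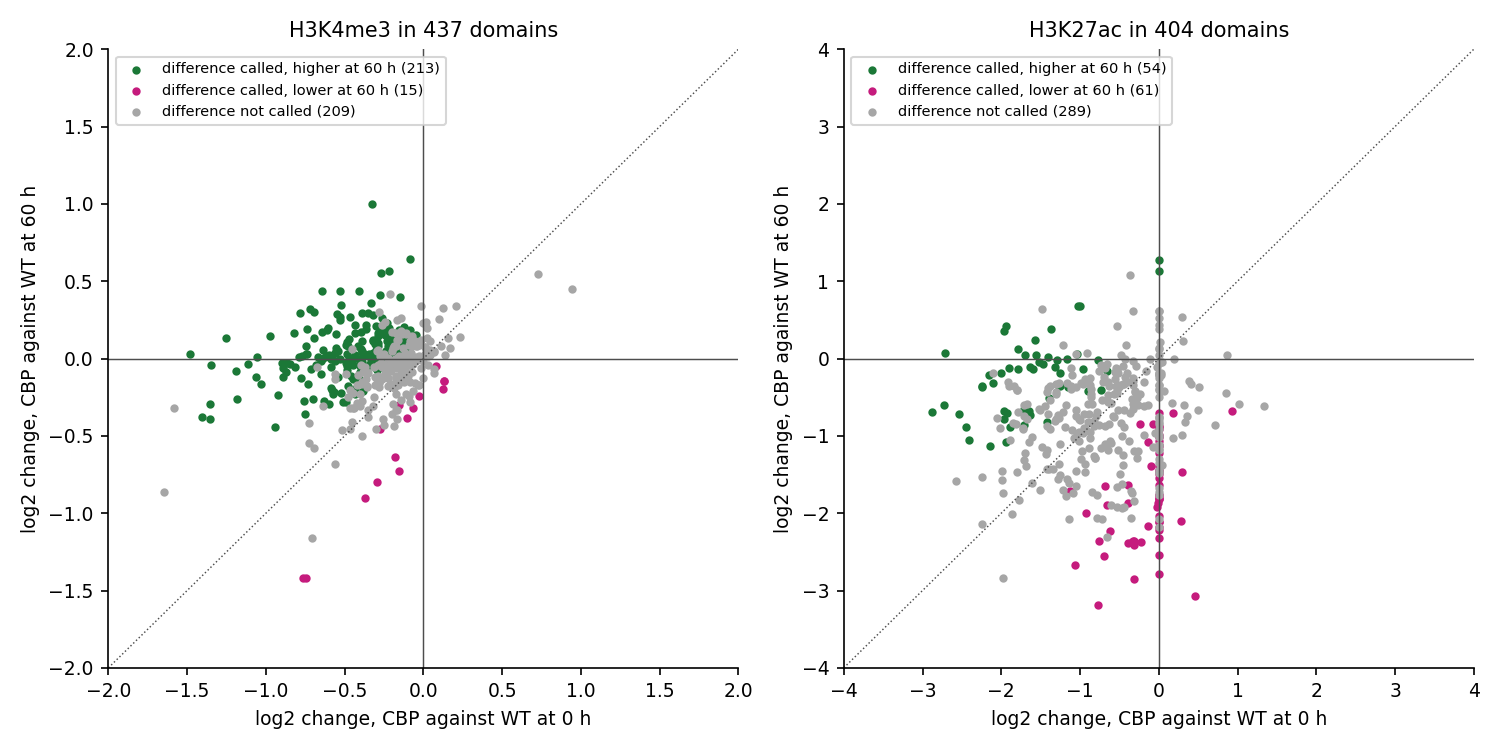
Log2 change of length under peaks, CBP against WT, at 0 h (horizontal axis) and at 60 h (vertical axis) for H3K4me3 in 437 domains and H3K27ac in 404, each point a domain. Points above the dotted line of equal change have a higher CBP effect at 60 h; colours give the 213 and 15 domains (H3K4me3) and the 54 and 61 domains (H3K27ac) whose difference was called.

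H3K27ac had no part in choosing the domains, but H3K4me3 width, mostly at 60 h, did. Differences in H3K27ac between times, or between domains and narrower regions, cannot be taken as independent of that choice. H3K27ac covered 29.2% and 24.5% of domain width in CBP and 47.4% and 43.6% in WT at 60 h, and 7.45% and 5.53% in CBP and 18.5% and 16.1% in WT at 0 h. In narrower regions the values were 14.4% and 10.5% in CBP and 27.9% and 24.8% in WT at 60 h, and 4.61% and 3.33% in CBP and 12.1% and 9.81% in WT at 0 h. Domains exceeded narrower regions in 8 of 8 libraries, by 10.6 percentage points on average (2.20 to 19.5). The exact sign-flip permutation p was 0.00781, the smallest that 8 libraries allow. It measures agreement among libraries scored over the same regions, not the spread between regions. A H3K27ac peak was present in 344 and 309 domains in CBP and 400 and 390 in WT at 60 h, and in 192 and 154 in CBP and 310 and 289 in WT at 0 h.

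**Figure D4:**
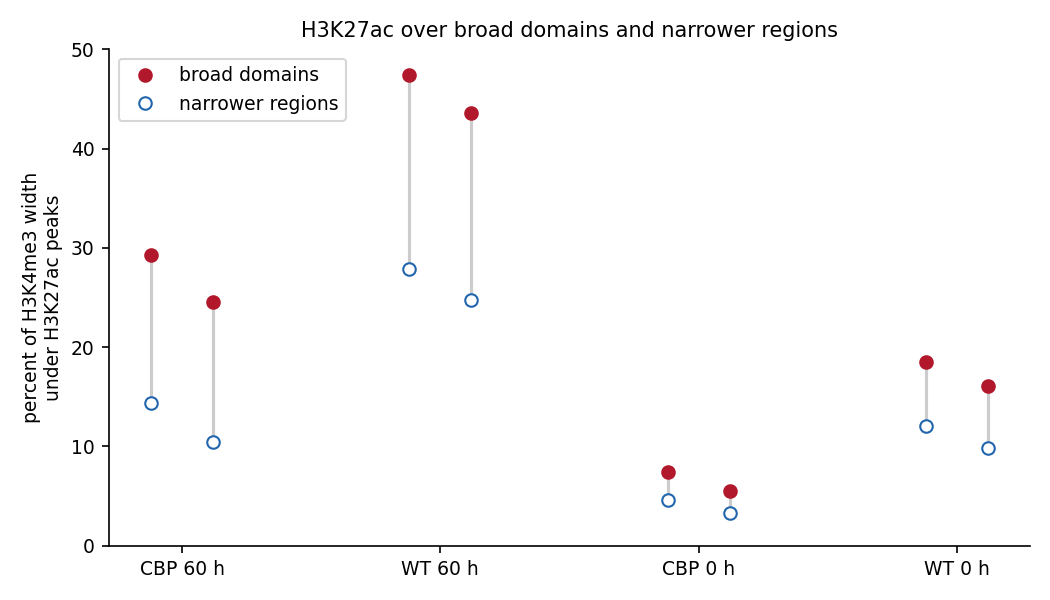
Percent of H3K4me3 region width under H3K27ac peaks, for 437 domains (filled) and 10861 narrower regions (open), with a line joining the values of 1 library. Domains lie above narrower regions in all 8 libraries, and CBP lies below WT at each time.

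In kb, H3K27ac in domains summed to 799.9 and 671.1 in CBP against 1295 and 1193 in WT at 60 h (ratio 0.591), and 203.8 and 151.3 in CBP against 506.2 and 439.8 in WT at 0 h (ratio 0.375). The 60 h to 0 h ratio was 4.14 in CBP and 2.63 in WT. The whole H3K27ac lists moved too, covering 11.7 and 9.26 Mb in CBP and 20.2 and 17.96 Mb in WT at 60 h, and 6.30 and 4.77 Mb in CBP and 13.0 and 11.6 Mb in WT at 0 h. As a share of the list, domains held 15.05% and 16.7% in CBP against 13.4% and 13.7% in WT at 60 h, and 11.6% and 11.7% in CBP against 11.8% and 12.3% in WT at 0 h. The share was higher at 60 h than at 0 h in both treatments without overlap. The 60 h libraries mostly set the members, so this comparison cannot be taken as independent of that choice. The exact two-sided permutation p for it within strata was 0.0556, the smallest possible (adjusted p = 0.0972 over the 14 tests of this kind). Those 14 include tests, not reported here, of H3K4me3 values that took part in choosing the domains. CBP lay above WT at 60 h but below it at 0 h. The exact permutation within strata for CBP against WT (p = 0.333) averages both times, where opposite differences cancel. It therefore does not test this change of side.

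At 404 domains with enough H3K27ac to test, 181 were called lower and 5 higher in CBP than in WT at 60 h, against 39.5% and 3.12% of the 9583 regions tested. At 0 h, 152 were lower and 1 higher, against 23.2% and 1.5%. From 0 h to 60 h, 226 domains gained and 8 lost H3K27ac in CBP (29% and 5.07% of all regions). In CBP the exposure to the inhibitor differed too. Over the same time, 277 gained and 7 lost in WT (48.2% and 6.77%). The median gain of domains was 1.16 in CBP and 1.20 in WT, beside 0.36 and 0.77 in narrower regions. These medians depended on the bp added to each length before the log2. Adding 100 bp instead gave 1.84 in CBP and 1.58 in WT, beside 0.99 and 1.36 in narrower regions. Domains still gained more than narrower regions, but by less in WT, and the domain median was then higher in CBP than in WT. Quantile scaling gave 89 lower and 24 higher for the inhibitor at 60 h, 101 and 27 at 0 h, 151 gains and 34 losses with time in CBP, and 159 and 31 in WT. Centring gave 122 lower and 36 higher at 60 h, 118 and 9 at 0 h, 215 gains and 24 losses in CBP, and 223 and 23 in WT. Leaving out WT replicate 1 at 60 h brought the inhibitor's calls at 60 h to 77 lower and 5 higher and the time calls in WT to 161 and 7; leaving out WT replicate 2 gave 89 and 3, and 183 and 4.

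At PAX7, where H3K4me3 length was within 3.75 to 4.94 kb in all 8 libraries, H3K27ac peaks covered 2.465 and 2.463 kb in CBP against 4.47 and 4.04 kb in WT at 60 h (-0.68 ± 0.09, limma adjusted p = 0.00319), and 0.707 and 0.691 kb in CBP against 3.55 and 2.99 kb in WT at 0 h (-1.65 ± 0.09, adjusted p = 0.000263). The 4 groups did not overlap. Of the 6 satellite identity domains, 5 were lower in CBP at 0 h and 3 at 60 h, with none higher, beside 37.6% of all domains tested lower at 0 h and 44.8% at 60 h; 2 and 1 of these calls were kept under both rescalings.

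All 6 HOX domains had less H3K27ac in CBP at 0 h and gained it by 60 h in CBP, beside 37.6% of all domains tested that were lower and 55.9% that gained, and 3 of the 6 calls at 0 h were kept under both rescalings. As above, the HOXC domains among the 6 are neighbours and not separate loci. HOXC6, HOXC11 and HOXB2 had no H3K27ac peak listed in either CBP library at 0 h. HOXA10 with HOXA9 had 20.0 and 19.2 kb in CBP against 21.9 and 22.1 kb in WT at 60 h (-0.16, adjusted p = 0.140, but 0.30 after centring), and 8.01 and 7.49 kb in CBP against 13.4 and 11.7 kb in WT at 0 h (-0.66, adjusted p = 0.00299). MEIS1, a homeobox partner of HOX proteins, had 5.95 and 4.79 kb in CBP and 6.80 and 5.80 kb in WT at 60 h, and was listed at 0 in CBP against 1.88 and 1.59 kb in WT at 0 h (adjusted p = 0.000431 at 0 h and 0.271 at 60 h).

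Of the 12 cytoskeleton and adhesion domains, H3K27ac was called lower in CBP in 8 at 60 h and in 4 at 0 h, with 5 and 2 kept under both rescalings (44.8% and 37.6% over all domains tested), and ACTB, ACTG1 and ACTN1 had no H3K27ac peak listed in any library at 0 h. ACTB, cytoplasmic beta-actin, had 1.07 and 1.03 kb in CBP against 2.77 and 3.51 kb in WT at 60 h (-1.22 ± 0.10, adjusted p = 0.000621). The domain of ENO3, PFN1 and RNF167, ENO3 encoding the muscle enolase and PFN1 profilin, had 0 and 0.616 kb in CBP against 4.78 and 4.96 kb in WT at 60 h (-2.85 ± 0.43, adjusted p = 0.00599). At 0 h the same domain had 0 kb in both CBP libraries and 0 and 0.277 kb in WT.

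The difference of the inhibitor's effect between times was positive in 54 domains and negative in 61, against 12.4% and 22.8% of all regions. Time and exposure cannot be told apart here either. The domain median was -0.01. Adding 100 bp before the log2 instead gave 81 positive and 51 negative domains, with a median of 0.27. Lists of equal length gave 38 and 79, with a median of -0.34. Which side held more domains therefore depended on the setting. Where a group had 0 kb, the log2 size also depended on the bp added. Quantile scaling gave 70 and 61, and centring 81 and 73; without WT replicate 1 at 60 h the counts were 39 and 25, and without replicate 2 they were 34 and 31. FHL3, a LIM protein that binds MYOD1, had 2.49 and 2.52 kb in CBP against 2.78 and 1.99 kb in WT at 60 h, and 0 kb in both CBP libraries against 3.02 and 2.58 kb in WT at 0 h (2.79 ± 0.21, limma adjusted p = 0.000472). Inside BRD2, a bromodomain protein gene, H3K27ac covered 2.67 and 2.42 kb in CBP against 4.48 and 4.32 kb in WT at 60 h, and 0 kb against 3.37 and 3.02 kb at 0 h (2.20 ± 0.09, adjusted p = 5.46e-05). In both domains CBP at 0 h was the group with nothing listed.

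WT at 60 h stood alone inside MYADM, a myeloid-associated membrane protein gene, with 0 kb in both CBP libraries against 3.93 and 3.46 kb in WT at 60 h, and 0.449 and 0.402 kb in CBP against 0.405 and 0 kb in WT at 0 h (-3.53 ± 0.41, adjusted p = 0.00240). ZBTB7B, a zinc finger factor, had 0.309 and 0 kb in CBP against 3.67 and 4.08 kb in WT at 60 h and nothing at 0 h (-2.78, adjusted p = 0.00268). SIX5 with the muscle protein kinase gene DMPK had 2.51 and 2.32 kb in WT at 60 h and nothing in the other 6 libraries (-2.54, adjusted p = 1.46e-05). Inside PTMA, the prothymosin alpha gene, WT at 60 h had 4.17 and 3.93 kb and CBP had 0 kb in both libraries (-3.19 ± 0.10 for CBP against WT, adjusted p = 1.78e-05). H3K4me3 length at ZBTB7B and inside MYADM and PTMA did not pass for CBP against WT at 60 h (0.09, -0.07 and -0.01, adjusted p = 0.107, 0.485 and 0.879).

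**Figure D5:**
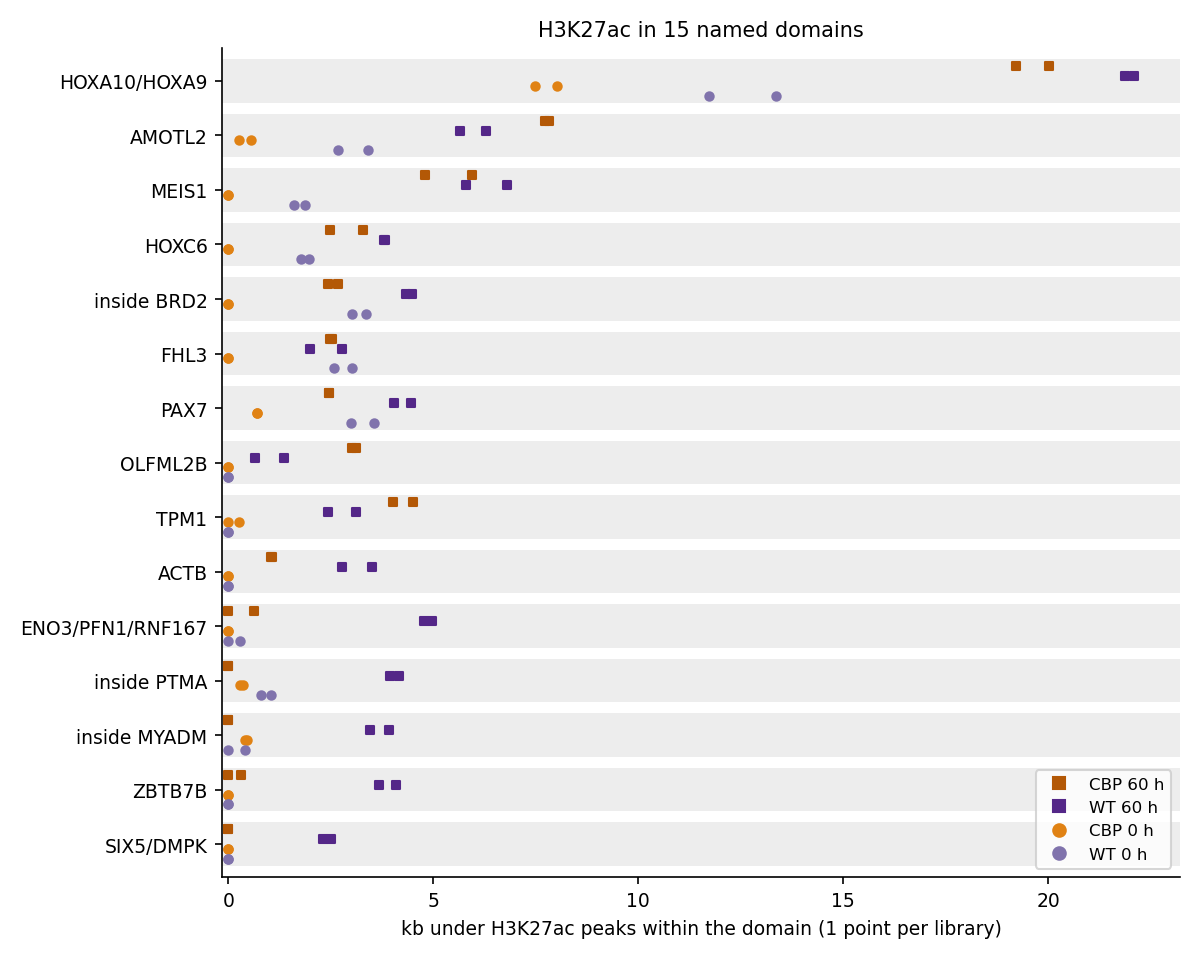
Kilobases under H3K27ac peaks in 15 named domains, 1 point per library, with CBP above WT and 60 h (squares) above 0 h (circles) in each row. FHL3, MEIS1 and HOXC6 have nothing listed in CBP at 0 h alone, whereas SIX5/DMPK and ZBTB7B have over 2 kb in WT at 60 h and at most 0.309 kb elsewhere.

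Some domains had more H3K27ac in CBP at 60 h. OLFML2B, an olfactomedin-like matrix protein gene, had 3.02 and 3.11 kb in CBP against 1.37 and 0.659 kb in WT at 60 h, and nothing listed at 0 h (1.28 ± 0.23, adjusted p = 0.0103). The SHOX2 domain had 3.94 and 3.55 kb against 2.20 and 2.098 kb in WT at 60 h (0.68 ± 0.06, adjusted p = 0.000577), and 0 kb in CBP against 0.501 and 0.491 kb in WT at 0 h (-0.99, adjusted p = 0.000306). CARNS1 was called from short peaks, 0.597 and 0.586 kb in CBP and 0 kb in WT. The groups were apart in each of these.

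H3K27me3, the Polycomb mark of silent genes, was rare in the domains and in narrower regions alike. A peak touched 6 and 3 domains in CBP and 3 and 2 in WT at 60 h, and 11 and 6 in CBP and 0 and 1 in WT at 0 h, 13 different domains in all. In both CBP libraries at 0 h a peak was present in 1.37% of domains and 1.46% of narrower regions, and in both at 60 h in 0.687% and 0.635%. Library by library, the share of regions with a peak was higher in domains in CBP replicate 1 at 60 h (1.37% against 1.004%) and CBP replicate 1 at 0 h (2.52% against 2.34%), and lower in the other 6. By length it covered less of domain width than of narrower regions in 8 of 8 libraries (mean difference -0.174 percentage points, exact sign-flip permutation p = 0.00781, the smallest possible). That p measures agreement among libraries scored over the same regions, not the spread between regions. The domain lengths rest on the few domains counted above. H3K27me3 lists covered 34.7 and 25.1 Mb in CBP and 1.11 and 3.12 Mb in WT at 0 h, and between 4.67 and 10.4 Mb at 60 h; the part of list length in these counts was not tested.

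The homeobox gene MEIS2 had H3K27me3 in 6 libraries, with 1.72 and 1.52 kb in CBP and 2.71 and 1.67 kb in WT at 60 h, and 3.88 and 2.20 kb in CBP and none in WT at 0 h. At GAD1 the mark covered 4.77 and 4.65 kb in CBP and none in WT at 0 h, and 0.294 and 0 kb in CBP and none in WT at 60 h. Inside CDKN2B it covered 2.56 and 2.77 kb in CBP against 0 and 0.490 kb in WT at 0 h, and at IRX5, another homeobox gene, 3.34 and 1.39 kb against none. In H3K4me3 all 4 of these were shorter in CBP than in WT at 0 h, as 66.4% of all domains were: GAD1 changed by -0.76, the CDKN2B domain by -0.39, IRX5 by -0.25 and MEIS2 by -0.24 (limma adjusted p = 0.00725, 0.0152, 0.00385 and 0.0426), and GAD1 alone of the 4 kept the call under both rescalings. The other 9 domains, among them SFMBT2, SIM2, TBX3, IGF1R and PDGFRA, had at most 1.66 kb in any library.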

How the data were processed

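CUT&Tag peak lists of H3K4me3, H3K27ac and H3K27me3 (24 libraries, 2 per group) were used; the 8 IgG samples were not analysed here. Per the submitters' processing notes, Trimmomatic (version not given), MACS2 2.1.0 and Sscrofa11.1 were used. No label or header used here names the aligner, calling options or control library, and depth is unknown, so no precision from depth can be stated. The deposited score column, fold enrichment ratio and -log10 p and q columns were made by the authors' peak caller, per the file format; of these the -log10 q served for 1 alternative threshold.

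Peak positions were merged and lengths under peaks summed per region with Python 3.11.15. limma 3.58.1 (R 4.3.3; trend and robust) was fitted to log2(bp + 500) over all regions with at least 200 bp in at least 2 of 8 libraries, 4 groups and 4 residual degrees of freedom, with Benjamini-Hochberg adjustment within each contrast. The fit was checked on simulated data. H3K27ac shares per library were compared by exact two-sided permutation. The adjustment ran over all sums, shares, peaks per domain and widest peaks computed, those of H3K4me3 included. Samples were grouped by title. Gene names came from RefSeq's table for Sscrofa11.1. Named domains are the 10 widest, the 5 largest called changes each way per contrast without overlap (3 for H3K27ac), and panel genes; members of the gene lists quoted beside list counts were chosen after their values were seen. Members and lists were chosen with earlier results of these data known. Alternatives were other pseudocounts, filters, peak thresholds, list lengths, scalings, width limits, a replicate block and leaving out each library. Promoter sequences were not analysed here, and some genes and domains that these rules name are not reported here.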

Additional observations from a re-analysis of the deposited data

Results flagged for a closer look

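The effect of the inhibitor differed between 60 h and 0 h, by the limma term for the difference, in 228 domains for H3K4me3 and in 115 for H3K27ac. Exposure to the inhibitor differed between the times as well. For H3K4me3 the named domains were NFE2L1 (1.51), SBNO2 (1.39), MOGS with WBP1 (1.33), the domain inside CELF2 (1.302) and AMOTL2 (1.12), with a less negative or more positive CBP effect at 60 h. The sign was opposite inside CCDC80 (-0.68), at GAD1 (-0.66), RBM24 (-0.57) and S100A1 (-0.53), and inside PACSIN3 (-0.50). For H3K27ac they were FHL3 (2.79), LIPG (2.37) and AMOTL2 (2.33) on one side, and the domain inside MYADM (-3.53), ZBTB7B (-2.78) and SIX5 with DMPK (-2.54) on the other. All of these values are log2 differences of length under peaks, with 2 libraries in each of 4 groups.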

How the results depend on the processing

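Of the alternatives run for totals and counts of calls, 330 stayed on the same side within the limits used, 39 moved past them and 9 reversed. With domains of at least 4 kb the H3K4me3 calls for CBP against WT were 212 at 60 h and 643 at 0 h, those for time 988 in CBP and 655 in WT, and those for the difference 513; with at least 8 kb they were 11, 33, 41, 30 and 27. The H3K27ac calls in the same order were 462, 340, 504, 657 and 297 at 4 kb and 17, 23, 34, 33 and 15 at 8 kb; fewer or more domains enter by construction. Centring gave 167 H3K4me3 calls at 0 h and 149 for the difference, and quantile scaling 144 for the difference and 113 H3K27ac calls at 60 h. Lists of equal length gave 74 H3K27ac calls at 0 h. The H3K4me3 share ratio of CBP to WT at 0 h (1.001) became 0.978 with a -log10 q of at least 5, 0.985 with lists of equal length and 0.973 at 8 kb, and that of 60 h to 0 h in CBP (0.968) became 1.01 at 8 kb. The widest-peak ratio of CBP to WT at 60 h (0.987) became 1.005 at 4 kb, and the H3K27ac share ratio at 0 h (0.966) became 1.11 at 8 kb. The S100A1 difference became 0.18 with a -log10 q of at least 5. Domains with H3K27me3 in both libraries fell to 1 in CBP at 60 h with at least 500 bp, and with a -log10 q of at least 5 to 0 in CBP at 60 h, 0 in WT at 60 h and 1 in CBP at 0 h. The cause of these changes was not tested. Leaving out 1 library at a time gave 44 to 91 H3K4me3 calls at 60 h, 82 to 202 H3K27ac calls at 60 h, 168 to 283 for time in WT and 64 to 146 for the difference, a share ratio at 0 h of 0.996 to 1.01 and a widest-peak ratio at 60 h of 0.972 to 1.002. Same-numbered libraries showed no shared deviation (correlations -0.037 to 0.0345). These values cannot exclude a weak shared effect, and no label says whether the libraries were paired. A replicate block gave 81 H3K4me3 calls for CBP against WT at 60 h, 271 at 0 h, 397 and 271 for time in CBP and WT, and 219 for the difference. For H3K27ac it gave 183, 141, 230, 281 and 122. For single domains, 116 alternatives kept the direction and lost the call. Depth is unknown, so a peak missing from a list may lie below the caller's threshold.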

Other observations

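Of 17 domains at signalling genes, 10 were called lower and none higher for H3K4me3 in CBP at 0 h (3 of the 10 under both rescalings), beside 66.4% of all domains called lower. At 60 h 2 were lower and 2 higher, beside 16.7% and 5.03% of all domains. FZD7, a Wnt receptor, had 4.99 and 4.98 kb in CBP against 4.01 and 3.95 kb in WT at 60 h, and 1.41 and 1.16 kb in CBP against 2.52 and 2.60 kb in WT at 0 h (limma adjusted p = 0.0343 at 60 h and 0.000863 at 0 h). PDGFRA, a growth factor receptor that was also on the fibroblast marker list, had 5.13 and 5.08 kb in CBP against 4.484 and 4.490 kb in WT at 60 h, and 2.52 and 2.69 kb against 4.33 and 4.38 kb in WT at 0 h (adjusted p = 0.0179 and 0.000241). Both genes thus changed side between the times as deposited. The PDGFRA calls at both times were kept under both rescalings, while the FZD7 call at 60 h was lost under centring. The Sprouty genes SPRY1, SPRY2 and SPRY4, feedback inhibitors of receptor tyrosine kinases, were all called lower at 0 h (-0.59, -0.29 and -0.18, the last 0.00 after centring and 0.08 after quantile scaling), and at 60 h SPRY4 alone was called among them (-0.19, adjusted p = 0.0225).

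Of 20 domains at developmental transcription factors, 13 were called lower in CBP at 0 h and none higher (5 of the 13 under both rescalings), a share close to the 66.4% of all domains. PRRX1, a mesenchymal homeobox gene, had 5.19 and 5.14 kb in CBP against 4.281 and 3.799 kb in WT at 60 h, and 1.61 and 1.59 kb against 2.93 and 2.99 kb in WT at 0 h (adjusted p = 0.00968 and 0.000533). Every CBP value exceeded every WT value at 60 h and lay below every WT value at 0 h.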
